A study of Homo sapiens with 6 samples.

Results

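The genes described here encode the SR proteins and the hnRNP proteins, the 2 large classes of RNA-binding protein that steer splice site choice. They were taken from the deposited expression table by symbol: SRSF or HNRNP followed only by letters and digits, with TRA2A, TRA2B, PTBP1, PTBP2 and PTBP3 added, and with HNRNPD and 124 numbered pseudogene rows left out. This gave 41 of the 60589 rows, made up of 12 SRSF genes, 24 HNRNP genes, 2 TRA2 genes and 3 PTBP genes. The libraries came from SNU449, a human cell line from a hepatocellular carcinoma, harvested at day 3. There were 3 libraries from cells given an siRNA against MAD2L1 (siMAD2L1), a spindle checkpoint gene, and 3 from cells given a control siRNA (siControl). All 3 titles of the knockdown libraries name MAD2L1, but the treatment field names MAD2L1, MAD2L2 and MAD2L3 for replicates 1, 2 and 3. The labels do not say whether the replicates were separate cultures or transfections, so each p-value reflects library-to-library spread that may be technical. Both groups are 1 line, and neither includes untransfected cells.

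SR proteins carry RNA recognition motifs and a tail rich in arginine-serine dipeptides. They bind enhancers in exons, recruit the U1 and U2 particles to the flanking splice sites and are controlled by phosphorylation of that tail by the SRPK and CLK kinases. The hnRNP proteins coat nascent transcripts, and many of them repress nearby splice sites, among them the polypyrimidine tract-binding (PTB) proteins, which bind CU-rich introns. Many genes of both classes control their own level through exons or introns whose inclusion sends the transcript to nonsense-mediated decay. GENCODE 29 lists at least 1 such decay transcript for all 12 SRSF genes and for 12 of the 19 hnRNP genes that could be tested. The values below are totals per gene and hold productive and decay transcripts together, so the share of each is unknown.

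The expression values are TPM, transcript abundances scaled for length and to one fixed library total. Read depth is therefore unknown, and no counting interval is given. MAD2L1 itself measured 4.47, 0.795 and 2.40 TPM in siMAD2L1 replicates 1, 2 and 3, against 14.5, 13.7 and 13.9 TPM in siControl replicates 1, 2 and 3. Replicate 1 kept the most MAD2L1 mRNA. Mitochondrially encoded genes held 9.21% to 10.9% of the TPM in siMAD2L1 and 15.2% to 15.3% in siControl. Of 6 proliferation markers 4 fell in siMAD2L1, PCNA (56.1 TPM on average, against 124.9 TPM in siControl), CCNB1, MKI67 and MCM2. Their limma adjusted p were 0.00153, 0.00222, 0.0376 and 0.00612. TOP2A (log2 fold change -0.88, adjusted p = 0.139) and CDK1 (-0.34, adjusted p = 0.245) did not pass. Over all tested genes 6.23% were called lower, the share to set beside this count and those of the marker lists below. The 6 markers summed to 199 to 252 TPM in siMAD2L1 and 378 to 427 TPM in siControl, and their part in the results below was not tested. In bulk RNA, fewer cells of a kind and less RNA per cell cannot be told apart. Of 9 hepatocyte markers 3 reached a mean of 1 TPM (summed level of the list 7.34 to 10.9 TPM in siMAD2L1, 17.0 to 22.6 TPM in siControl), and 2 of these, FGB and TF, fell (adjusted p = 0.0142 and 0.0181). ALB stood at 0.451 TPM or less in every library and APOB and TTR at 0. Of 5 mesenchymal markers, VIM stood at 10541 to 11152 TPM in siMAD2L1 and 9128 to 9986 TPM in siControl. On average FN1 stood at 56.6 TPM in siMAD2L1 and 55.35 TPM in siControl, and CDH2 at 31.8 and 34.3 TPM. ZEB1 averaged 7.88 TPM in siMAD2L1 and 3.38 TPM in siControl, and SNAI2 0.162 and 0.157 TPM. Of the 4 mesenchymal markers tested 0 passed (limma). The keratins of hepatocellular cells also fell, KRT18 (133 TPM on average in siMAD2L1, 194 TPM in siControl; log2 fold change -0.55, adjusted p = 0.00661) and KRT8 (163 TPM in siMAD2L1, 221.5 TPM in siControl; -0.44, adjusted p = 0.0101). Their list of 5 epithelial genes, which also holds KRT19, EPCAM and CDH1, summed to 279 to 309 TPM in siMAD2L1 and 411 to 426 TPM in siControl. The part of these markers in the results below was not tested. The leukocyte and endothelial genes PTPRC, CD3E, PECAM1, VWF and CDH5 stayed below 1 TPM in each library, whereas CD68, which is also a lysosomal gene of other cells, averaged 137.5 TPM in siMAD2L1 and 65.8 TPM in siControl and made up most of that list's summed 128 to 149 TPM in siMAD2L1 and 70.3 to 75.9 TPM in siControl. CD14, the other tested gene of that list, averaged 3.43 TPM in siMAD2L1 and 7.50 TPM in siControl (-0.89, adjusted p = 0.0851).

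Promoter sequences are given for 3 of the genes that fell and for PTBP3, the only tested gene of the set whose siMAD2L1 libraries all lay above siControl. The 250 bases before the RefSeq transcript start (GRCh38.p14) are printed 5′ to 3′ on the gene's strand. These starts lie downstream of the GENCODE gene starts given below. The windows of HNRNPA2B1 and PTBP3 therefore lie wholly, and those of SRSF1 and HNRNPM partly, inside the GENCODE gene. The windows are chr7:26200747-26200996 on the minus strand for HNRNPA2B1, chr17:58007247-58007496 on the minus strand for SRSF1, chr19:8444725-8444974 on the plus strand for HNRNPM and chr9:112333027-112333276 on the minus strand for PTBP3. Capitals mark matches, on either strand, to CCAAT (bound by NF-Y), TTCCGG (ETS factors), GGGCGG (SP and KLF factors), CACGTG (the E-box of MYC and other factors), TTTGGCGC and TTTCCCGC (E2F), TGACGT (CREB and ATF factors) and TATAAA.
HNRNPA2B1: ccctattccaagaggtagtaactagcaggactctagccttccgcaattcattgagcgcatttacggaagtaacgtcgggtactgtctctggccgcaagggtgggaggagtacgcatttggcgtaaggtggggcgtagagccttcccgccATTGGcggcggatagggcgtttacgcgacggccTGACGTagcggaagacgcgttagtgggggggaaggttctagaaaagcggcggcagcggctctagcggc
SRSF1: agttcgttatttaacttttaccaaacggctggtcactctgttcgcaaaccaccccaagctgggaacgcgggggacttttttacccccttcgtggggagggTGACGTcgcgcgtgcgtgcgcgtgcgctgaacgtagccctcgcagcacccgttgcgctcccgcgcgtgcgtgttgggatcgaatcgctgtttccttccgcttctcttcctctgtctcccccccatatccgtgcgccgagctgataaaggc
HNRNPM: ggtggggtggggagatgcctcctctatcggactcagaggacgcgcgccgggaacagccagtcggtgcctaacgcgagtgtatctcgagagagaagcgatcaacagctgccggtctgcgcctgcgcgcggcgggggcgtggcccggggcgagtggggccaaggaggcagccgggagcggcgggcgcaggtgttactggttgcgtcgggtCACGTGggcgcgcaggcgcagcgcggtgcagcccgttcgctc
PTBP3: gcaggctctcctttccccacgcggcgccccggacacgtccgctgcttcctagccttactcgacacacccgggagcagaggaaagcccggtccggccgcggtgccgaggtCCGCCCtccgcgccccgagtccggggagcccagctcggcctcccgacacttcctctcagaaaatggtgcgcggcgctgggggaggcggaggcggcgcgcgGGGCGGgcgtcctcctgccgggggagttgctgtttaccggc
The HNRNPA2B1 window held a CCAAT on the reverse strand 101 bases before the start and a TGACGT 68 bases before it. The SRSF1 window held a TGACGT 150 bases before the start. The HNRNPM window held a CACGTG 42 bases before the start, and the PTBP3 window held GGGCGG 141 bases (reverse strand) and 41 bases before it. No 2 of the listed motifs overlapped in these windows.

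Over the 33 tested genes with a RefSeq window, TGACGT was found in 6 (18.2%), against 7.10% of 35116 windows of the same length. These 35116, called all windows here, leave out chr8 and include genes that were not tested. They were not reduced to 1 window per gene, as was done for the set, so the shares are of unlike groups. CCAAT was found in 17 (51.5%, against 32.0% of all windows), GGGCGG in 22 (66.7%, against 42.6%) and CACGTG in 5 (15.2%, against 6.34%). The E2F letters TTTCCCGC were in 3 (9.09%, against 1.39%) and TTTGGCGC in none (0.550% of all windows), while TTCCGG was in 5 (15.2%, against 14.5%) and TATAAA in 3 (9.09%, against 10.7%). The median GC content of these windows was 66.0% in the set and 58.0% in all windows, and a GC-rich window holds GC-rich letters more often. Among the 5 genes that fell and have a window, TGACGT was in 2, GGGCGG in 2, CCAAT in 1 and CACGTG in 1. These matches are letters in a window and say nothing about binding.

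SR and hnRNP genes were among the highly expressed genes of these cells. Of the 41, 36 had a mean of at least 1 TPM over the 6 libraries and were tested. The other 5 were HNRNPCL1, HNRNPCL2, HNRNPCL3 and HNRNPCL4, relatives of HNRNPC that were listed at 0 in each library, and HNRNPA1L2, a relative of HNRNPA1. HNRNPA1L2 was listed at 0 in 4 libraries, at 0.396 TPM in siMAD2L1 replicate 3 and at 0.886 TPM in siControl replicate 2. In siControl 18 of the 36 averaged at least 100 TPM, and 19 stood among the highest 10% of all tested genes. The highest was HNRNPA1, a shuttling repressor of exon inclusion, at 641.8 ± 56.8 TPM in siMAD2L1 and 734 ± 34.8 TPM in siControl (SD, n = 3 each). HNRNPC, which binds U-tracts, and HNRNPK, which binds C-rich RNA, followed, and these 3 genes made up 32.2% of the summed TPM of the set in siControl. The highest SR gene was SRSF9, at 206.8 ± 6.12 TPM in siMAD2L1 and 222 ± 8.19 TPM in siControl (SD, n = 3 each). At the low end stood SRSF12 (2.15 TPM in siMAD2L1, 2.09 TPM in siControl on average), PTBP2 and SRSF8.

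As a set these genes lay lower after MAD2L1 knockdown, in 6 cases past the test. SRSF1, SRSF2, SRSF7, HNRNPA2B1, HNRNPM and HNRNPUL1 fell, to between 54.2% and 79.5% of their siControl means, and no gene of the set rose (limma-trend on log2(TPM + 1), Benjamini-Hochberg adjusted p under 0.05 over 14790 genes). That is 6 of 36 (16.7%), against 6.23% of all tested genes called lower, 3.55% called higher and 9.78% called in either direction. At an unadjusted limma p under 0.05 there were 18 lower and 1 higher. That is 19 of 36 (52.8%), against 26.3% of all tested genes in either direction. The log2 fold change was below 0 in 33 of 36 (91.7%), against 59.9% of all tested genes, and its median was -0.22, against -0.08. All 3 siMAD2L1 libraries lay below all 3 siControl libraries at 14 of 36 (38.9%), against 21.5% of all tested genes, and above them at 1, PTBP3 (2.78%, against 11.3%). The summed TPM of the set was 4836, 3851 and 4237 in siMAD2L1 replicates 1, 2 and 3, and 5022, 4894 and 5121 in siControl replicates 1, 2 and 3. These shares describe the set and were not tested against other genes, since the set was chosen with results of these data known.

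With siControl replicate 1, 2 or 3 left out, none of the 36 genes passed, with adjusted p of the 6 genes between 0.0529 and 0.158. Likewise none passed without siMAD2L1 replicate 3 or with limma without a mean-variance trend, and 1, HNRNPM, passed with no filter on low values. Under quantile normalization the calls were 6 lower and 1 higher, and under upper-quartile scaling 3 lower and 1 higher, PTBP3 being the higher one in both. Without siMAD2L1 replicate 1, 16 genes passed, all lower, and with library weights 20 passed lower and 1, PTBP3, higher. Calls over all tested genes rose in these 2 settings too. They were 1706 lower and 716 higher without that replicate and 3346 lower and 1514 higher with library weights, against 921 and 525 in the main fit. In these and all the other alternatives run, 17 in number, the log2 fold changes of the 6 genes stayed below 0. The groups of these 6 genes did not overlap, so only the alternatives that rescaled or adjusted the values could have turned the direction.

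**Figure D1:**
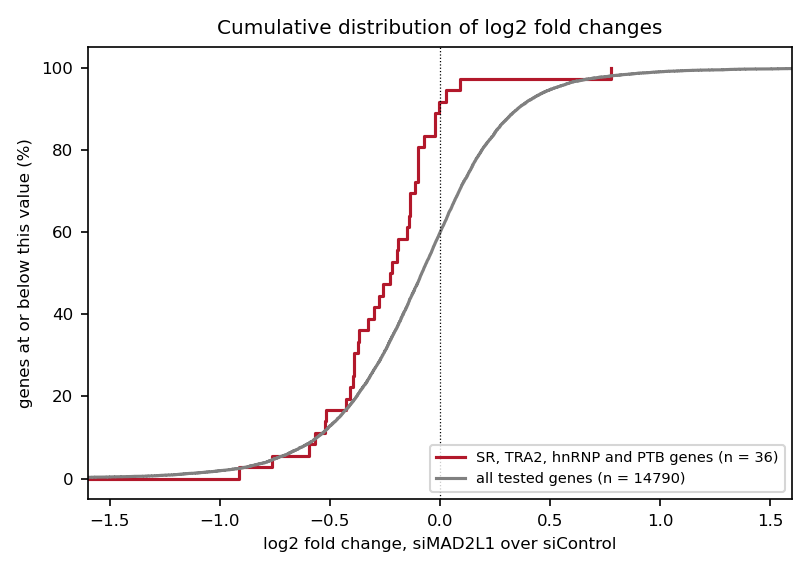
Cumulative share of genes (%) by log2 fold change, siMAD2L1 over siControl, for the 36 tested SR, TRA2, hnRNP and PTB genes (red) and for all 14790 tested genes (grey). The red curve lies left of the grey one over most of its range and reaches 91.7% at 0, where the grey curve stands at 59.9%.

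The 3 knockdown libraries did not behave alike. In siMAD2L1 replicate 1, 21 of the 36 genes lay below the siControl mean, in replicate 2 34 and in replicate 3 32, with medians of -0.09, -0.38 and -0.26 on the log2(TPM + 1) scale. Over all tested genes the medians were 0.02, -0.15 and -0.12. Replicate 2 held the lowest of the 3 values at 26 of 36 genes (72.2%), against 43.2% of all tested genes, and replicate 1 the highest at 28 (77.8%), against 53.2%. At 11 genes replicate 1 lay above the siControl mean and replicates 2 and 3 below it (30.6%, against 18.9% of all tested genes). MAD2L1 mRNA was likewise highest in replicate 1 and lowest in replicate 2, and the part of the remaining MAD2L1 in these values was not tested. The libraries also differed by exon length over all tested genes with a known length. In replicate 1 the median log2 difference from siControl was -0.08 in the short, 0.02 in the middle and 0.14 in the long of 3 length classes of nearly equal size, in replicate 2 it was -0.11, -0.14 and -0.19, and in replicate 3 it was -0.13, -0.11 and -0.11. Of the 36 genes 33 lie in the middle and long classes. With the length trend removed, 4 genes of the set were called lower (HNRNPA2B1, HNRNPM, SRSF1 and SRSF10) and PTBP3 higher.

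**Figure D2:**
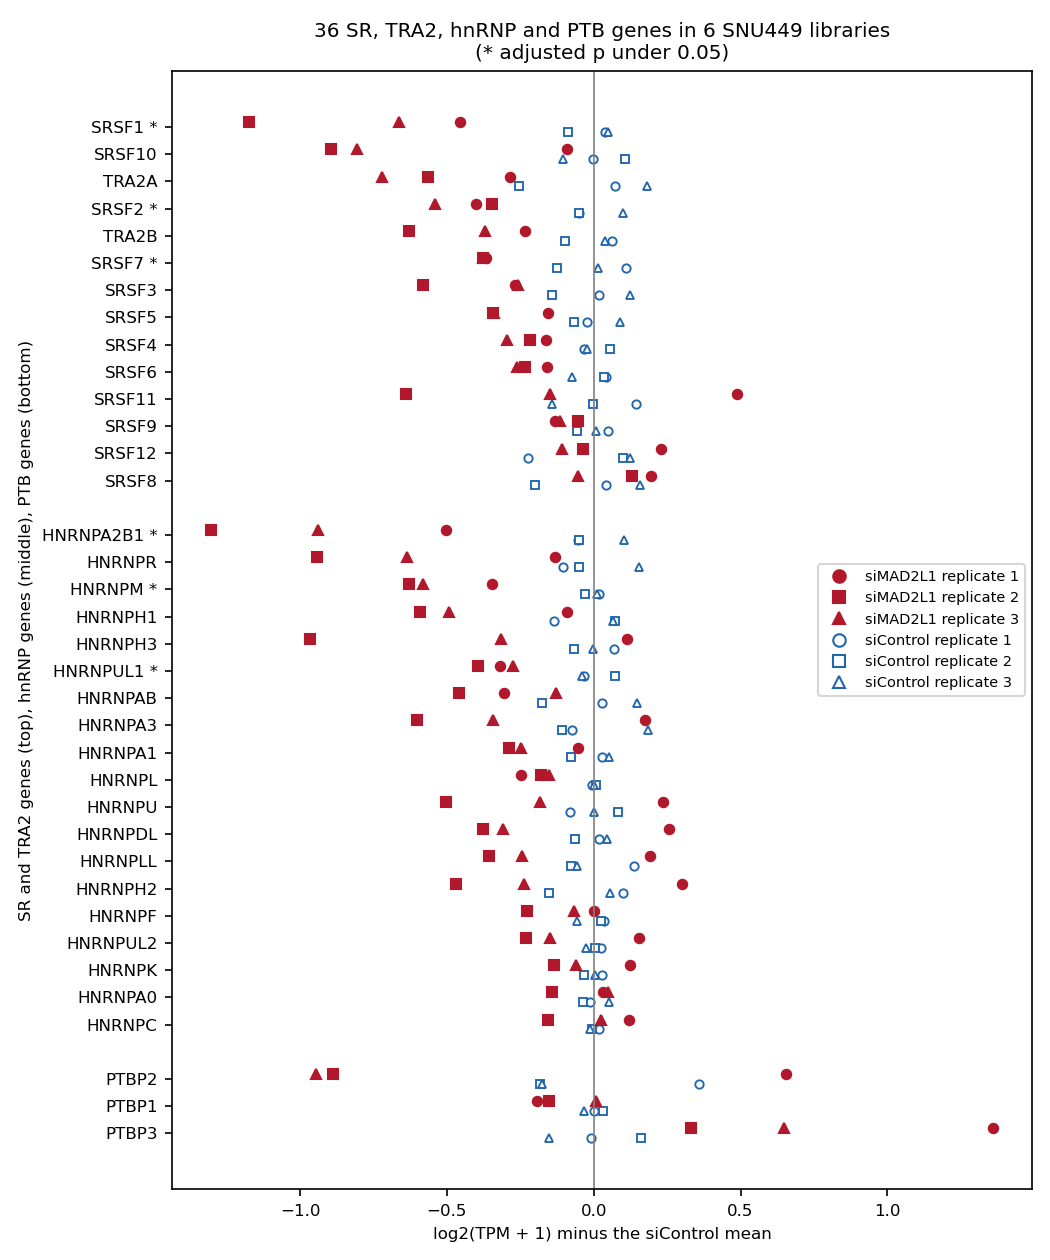
Each of the 36 tested genes in each library, as log2(TPM + 1) minus the mean of siControl, with siMAD2L1 as filled red symbols and siControl as open blue symbols. SR and TRA2 genes are at the top, hnRNP genes in the middle and PTB genes at the bottom, and asterisks mark the 6 genes with an adjusted p under 0.05. At HNRNPU, HNRNPDL and HNRNPH2 replicate 1 (circle) lies right of the line and replicates 2 and 3 left of it.

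Among the SR genes, SRSF1, SRSF2 and SRSF7 fell and the other 9 did not pass. SRSF1 (ENSG00000136450; chromosome 17, minus strand, 58003360 to 58007346, GENCODE 29 on GRCh38) encodes ASF/SF2, the SR protein that promotes the use of nearby 5′ splice sites and can act as an oncogene. It measured 62.6, 37.7 and 54.1 TPM in siMAD2L1, against 88.6, 81.1 and 89.3 TPM in siControl. The groups did not overlap, and replicate 2 was the lowest library. The log2 fold change was -0.76 (SE 0.171, 95% interval -1.16 to -0.37, adjusted p = 0.0317; exact permutation p = 0.1, the smallest that 3 against 3 libraries allow).

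SRSF2 (ENSG00000161547; chromosome 17, minus strand, 76734115 to 76737374), also called SC35, binds exonic enhancers and is a marker of nuclear speckles. It measured 73.8, 76.7 and 66.9 TPM in siMAD2L1, against 94.3, 94.3 and 105 TPM in siControl, again without overlap (log2 fold change -0.43, SE 0.0879, adjusted p = 0.0239). MFSD11, on the opposite strand and overlapping SRSF2, measured 17.5 to 21.4 TPM in siMAD2L1 and 19.1 to 22.6 TPM in siControl. SRSF7 (ENSG00000115875; chromosome 2, minus strand, 38743599 to 38751494), the SR protein with a zinc knuckle, measured 50.7, 50.4 and 50.4 TPM in siMAD2L1, against 70.9, 60.2 and 66.4 TPM in siControl (log2 fold change -0.37, SE 0.0878, adjusted p = 0.0376). Its 3 siMAD2L1 values lay within 1 TPM of each other, and the spread came from siControl. The strand setting of the counting is not given in the sources used here, so reads of overlapping genes on opposite strands cannot be told apart.

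Outside the calls, all siMAD2L1 libraries of SRSF3, SRSF4, SRSF5 and SRSF6 lay below all siControl libraries. With the called genes that made 7 of 12 SR genes, against 21.5% of all tested genes. SRSF3, the smallest SR protein, measured 141, 114 and 142 TPM in siMAD2L1, against 173, 154 and 186 TPM in siControl (log2 fold change -0.37, adjusted p = 0.0805). SRSF4, SRSF5 and SRSF6 had log2 fold changes of -0.23, -0.28 and -0.22 with adjusted p of 0.131, 0.0852 and 0.127. SRSF10, an SR protein that turns into a repressor when dephosphorylated, measured 24.1, 13.4 and 14.3 TPM in siMAD2L1, against 25.8, 27.9 and 23.9 TPM in siControl. Replicate 1 of siMAD2L1 reached into the siControl range, and the gene did not pass (-0.60, adjusted p = 0.114).

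SRSF9, SRSF11, SRSF8 and SRSF12 were nearest to 0. SRSF9, closely related to SRSF1, had a log2 fold change of -0.10 with a 95% interval of -0.26 to 0.05, and the ratio of SRSF1 to SRSF9 was 0.310, 0.176 and 0.265 in siMAD2L1, against 0.386, 0.381 and 0.401 in siControl (exact permutation p = 0.1). SRSF11 measured 33.9, 15.0 and 21.4 TPM in siMAD2L1, replicate 1 being above and replicates 2 and 3 below each siControl library (26.5, 23.9 and 21.6 TPM). SRSF8, a close copy of SRSF2, had a log2 fold change of 0.09 (95% interval -0.25 to 0.43) at about 10 TPM, so that SRSF2 exceeded it 6.67, 7.29 and 7.32 times in siMAD2L1, against 9.58, 11.6 and 9.76 times in siControl. SRSF12 had a log2 fold change of 0.03 (95% interval -0.46 to 0.51), and its direction and that of SRSF8 turned under some of the alternatives.

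The TRA2 genes, whose proteins resemble SR proteins and activate exons through GAA-rich sites, lay lower together without passing. TRA2A measured 34.0, 27.8 and 24.9 TPM in siMAD2L1, against 43.8, 34.7 and 47.4 TPM in siControl (log2 fold change -0.52, SE 0.153, adjusted p = 0.0713). TRA2B measured 50.4, 38.1 and 45.8 TPM in siMAD2L1, against 62.1, 55.5 and 61.1 TPM in siControl (log2 fold change -0.41, SE 0.117, adjusted p = 0.0654). Neither gene's groups overlapped, and both passed without siMAD2L1 replicate 1, with library weights, and once mitochondrial genes and the top 20 were dropped before rescaling. The ratio of TRA2A to TRA2B averaged 0.649 ± 0.0959 in siMAD2L1 and 0.703 ± 0.0751 in siControl (exact permutation p = 0.6; SD, n = 3 each).

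**Figure D3:**
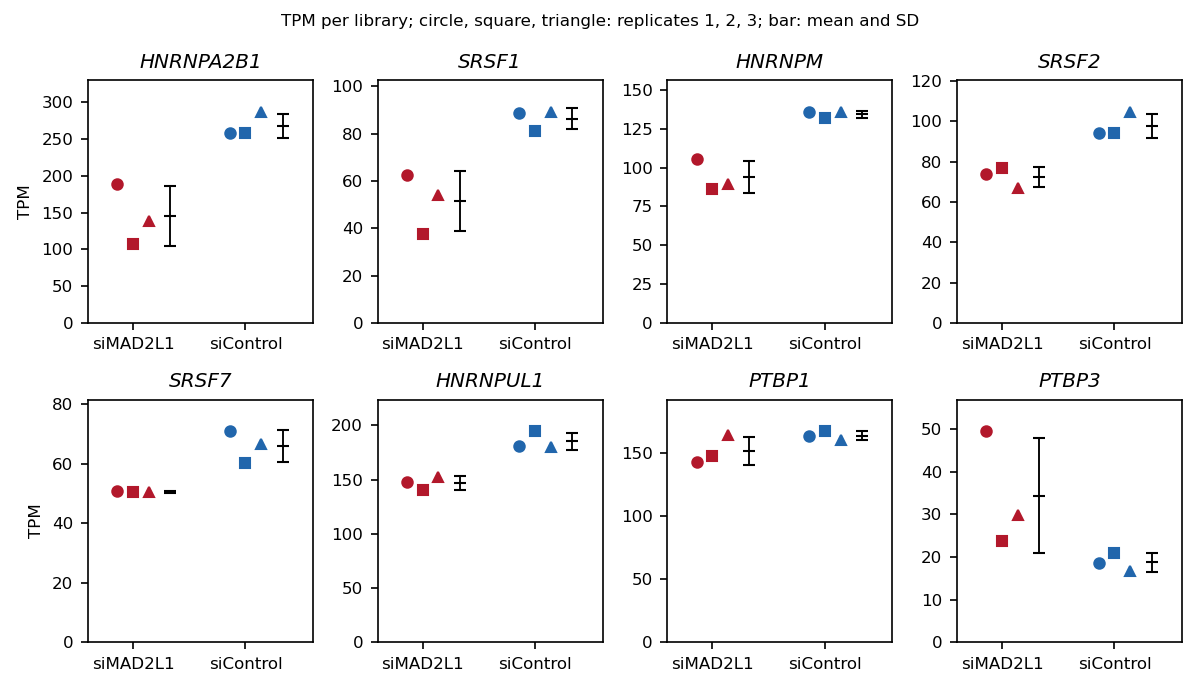
TPM of the 6 genes that fell and of PTBP1 and PTBP3 in each library, siMAD2L1 on the left (red) and siControl on the right (blue), with replicates 1, 2 and 3 as circle, square and triangle and the mean and SD as a black bar. The 2 groups stand apart at all genes shown except PTBP1, with siMAD2L1 lower at the 6 genes and higher at PTBP3.

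Of 19 tested hnRNP genes 3 fell and 16 did not pass. HNRNPA2B1 (ENSG00000122566; chromosome 7, minus strand, 26173057 to 26201529) encodes the hnRNP A2 and B1 proteins, core components of hnRNP particles that also sort small RNAs. It had the most negative log2 fold change of the set. HNRNPA2B1 measured 188, 108 and 139 TPM in siMAD2L1, against 258, 258 and 287 TPM in siControl. The groups were far apart in replicates 2 and 3 and nearer in replicate 1 (log2 fold change -0.92, SE 0.179, 95% interval -1.33 to -0.50, adjusted p = 0.0201; exact permutation p = 0.1). It was also the only one of the 6 to pass with siMAD2L1 replicate 1 alone against siControl.

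CBX3 and NFE2L3 overlap HNRNPA2B1 on the opposite strand in the annotation. CBX3 measured 104, 49.1 and 61.7 TPM in siMAD2L1, against 76.6, 73.7 and 83.1 TPM in siControl (log2 fold change -0.19, adjusted p = 0.662), and NFE2L3 had a log2 fold change of -0.61 (adjusted p = 0.169). HNRNPA1, a relative of HNRNPA2B1 in the hnRNP A/B family, had a log2 fold change of -0.20 (95% interval -0.39 to -0.01, adjusted p = 0.174). The ratio of HNRNPA2B1 to HNRNPA1 was 0.267, 0.179 and 0.225 in siMAD2L1, against 0.345, 0.372 and 0.378 in siControl, without overlap (exact permutation p = 0.1). HNRNPA1 shares sequence with 75 pseudogene rows, whose summed TPM was 4.69 to 9.40 in siMAD2L1 and 5.95 to 8.09 in siControl.

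HNRNPM (ENSG00000099783; chromosome 19, plus strand, 8444767 to 8489114), which binds GU-rich RNA, measured 106, 86.5 and 89.6 TPM in siMAD2L1, against 136, 132 and 136 TPM in siControl (log2 fold change -0.52, SE 0.0911, adjusted p = 0.0142). Its 3 siControl values lay within 5 TPM of each other. HNRNPUL1 (ENSG00000105323; chromosome 19, plus strand, 41262496 to 41307598), an hnRNP U relative that takes part in the response to DNA damage, measured 148, 141 and 153 TPM in siMAD2L1, against 181, 195 and 180.1 TPM in siControl (-0.33, SE 0.0724, adjusted p = 0.0299). TGFB1, which overlaps it on the opposite strand, measured 151 to 169 TPM in siMAD2L1 and 149 to 171 TPM in siControl.

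Of the hnRNP genes that did not pass, HNRNPR and HNRNPL also had no overlap between groups. With the called genes that made 5 of 19 hnRNP genes entirely below siControl, near the 21.5% of all tested genes. HNRNPR measured 52.9, 29.7 and 37.0 TPM in siMAD2L1, against 53.8, 56.0 and 64.6 TPM in siControl, with replicate 1 just under the lowest siControl library (log2 fold change -0.57, SE 0.193, adjusted p = 0.107). HNRNPL, which binds CA repeats, measured 184, 193 and 197 TPM in siMAD2L1, against 218, 219.8 and 219 TPM in siControl (-0.19, SE 0.0647, adjusted p = 0.103). Its relative HNRNPLL, known for CD45 splicing in T cells, had a log2 fold change of -0.14 (95% interval -0.51 to 0.23).

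The hnRNP F/H proteins bind G-runs, and of their 4 genes 0 passed (limma). An unadjusted limma p under 0.05 was reached by 1, HNRNPH1, and by 26.3% of all tested genes. HNRNPH1 measured 129, 90.9 and 97.6 TPM in siMAD2L1, against 125, 144.5 and 144 TPM in siControl (log2 fold change -0.39, adjusted p = 0.114), and HNRNPH3 measured 127, 59.6 and 94.0 TPM in siMAD2L1, against 123.2, 112 and 117 TPM in siControl (-0.39, adjusted p = 0.338). Replicate 1 of siMAD2L1 lay inside the siControl range for HNRNPH1 and above it for HNRNPH3, and the other 2 lay below it for both. HNRNPF had a log2 fold change of -0.10 (95% interval -0.28 to 0.09) and HNRNPH2 of -0.14 (95% interval -0.57 to 0.30). HNRNPH2 is uncertain, because the readthrough gene RPL36A-HNRNPH2, which spans it, held 363 to 414 TPM in siMAD2L1 and 292 to 434 TPM in siControl, several times the 32.1 to 55.5 TPM of HNRNPH2 itself in the 6 libraries.

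HNRNPC, HNRNPK and HNRNPA0 had the log2 fold changes nearest to 0 among hnRNP genes, and all 3 turned above 0 under upper-quartile scaling. HNRNPC measured 495, 409.5 and 464 TPM in siMAD2L1, against 462, 454 and 452 TPM in siControl (log2 fold change -0.00, 95% interval -0.19 to 0.18). HNRNPK measured 459, 383 and 404 TPM in siMAD2L1, against 429.6, 412 and 422 TPM in siControl (-0.02, 95% interval -0.21 to 0.16), and HNRNPA0 lay at -0.02 (95% interval -0.28 to 0.24). HNRNPU, a nuclear scaffold protein also called SAF-A, measured 331, 198 and 248 TPM in siMAD2L1, against 266, 297 and 281 TPM in siControl (-0.15, 95% interval -0.53 to 0.24). For HNRNPU, HNRNPA3 (-0.26, adjusted p = 0.426) and HNRNPDL (-0.14, adjusted p = 0.615) replicate 1 of siMAD2L1 lay above the siControl mean and replicates 2 and 3 below it. HNRNPAB (-0.30, adjusted p = 0.15) and HNRNPUL2 (-0.07, adjusted p = 0.741) did not pass either. HNRNPUL2 overlaps the readthrough gene HNRNPUL2-BSCL2, which stood at 26.0 to 31.6 TPM in siMAD2L1 and 30.0 to 33.9 TPM in siControl.

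**Figure D4:**
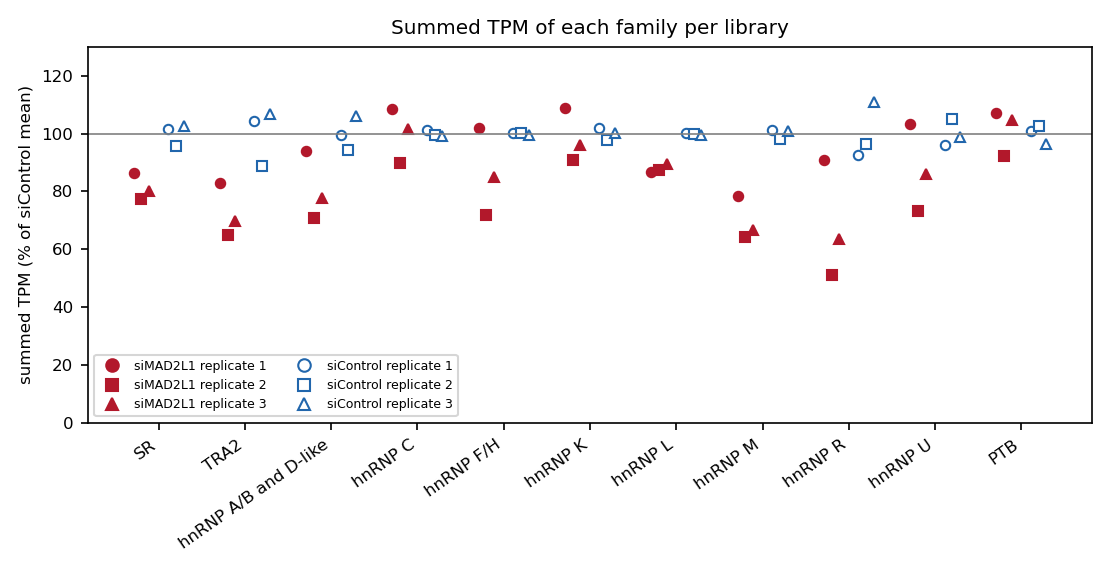
Summed TPM of the genes of each family in each library, as a percentage of the siControl mean of that family, with siMAD2L1 in filled red and siControl in open blue symbols. In the SR, TRA2, hnRNP L, hnRNP M and hnRNP R families the 3 siMAD2L1 libraries lie below the 3 siControl libraries, as they do for hnRNP A/B and D-like by a narrow margin (replicate 1 at 1357 TPM, against 1358 TPM in siControl replicate 2).

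By summed TPM, the SR genes held 807, 721 and 749 TPM in siMAD2L1, against 947, 893 and 958 TPM in siControl. The hnRNP genes held 3744, 2891 and 3220.0 TPM in siMAD2L1, against 3780 (replicate 1), 3718 and 3873 TPM in siControl, so that replicate 1 of siMAD2L1 stood within the siControl range. Medians of the log2 fold change were -0.25 over 12 SR genes and -0.19 over 19 hnRNP genes, and the difference between the classes was not tested.

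None of the 3 PTB genes passed (limma). An unadjusted limma p under 0.05 was reached by 1, PTBP3, and by 26.3% of all tested genes. PTBP3 (ENSG00000119314; chromosome 9, minus strand, 112217716 to 112333667), also called ROD1, measured 49.5, 23.8 and 29.8 TPM in siMAD2L1, against 18.6, 21.0 and 16.7 TPM in siControl. All siMAD2L1 libraries lay above all siControl libraries, with replicate 1 the highest by far, and the gene did not pass (log2 fold change 0.78, SE 0.242, 95% interval 0.22 to 1.34, adjusted p = 0.0844). It passed in 6 of 17 alternatives, among them quantile normalization, upper-quartile scaling and siMAD2L1 replicate 1 alone. PTBP1, the widely expressed repressor of the family, measured 143, 147 and 165 TPM in siMAD2L1, against 164, 168 and 160.3 TPM in siControl (-0.11, 95% interval -0.29 to 0.07). The ratio of PTBP3 to PTBP1 was 0.345, 0.161 and 0.181 in siMAD2L1, against 0.113, 0.126 and 0.104 in siControl, without overlap (exact permutation p = 0.1). PTBP2, the form best known from neurons, measured 8.55, 2.27 and 2.15 TPM in siMAD2L1, against 6.77, 4.33 and 4.37 TPM in siControl (-0.39, 95% interval -1.37 to 0.58). Its replicate 1 was the highest and its replicates 2 and 3 were the lowest of the 6 libraries.

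The genes around the SR and hnRNP proteins were read from lists that were likewise chosen with earlier results known, and their counts stand against 6.23% of all tested genes called lower and 3.55% called higher. Of 11 tested genes for SR protein kinases, a phosphatase and nuclear import 0 passed (limma; 1, CLK3, at an unadjusted p under 0.05; median log2 fold change -0.05), with CLK3, which phosphorylates SR proteins, at 87.9 ± 4.95 TPM in siMAD2L1 and 65.1 ± 10.3 TPM in siControl (SD, n = 3 each; 0.44, adjusted p = 0.0572) and PPP1CA at -0.07 (adjusted p = 0.593). Of 26 SR-related genes 2 fell (7.69%), SRRT (-0.83, adjusted p = 0.00363), which links the cap-binding complex to RNA processing, and ACIN1 (-0.77, adjusted p = 0.0106), a partner of the exon junction complex (median -0.08). Among hnRNP proteins with other symbols, RBMX, which is also called hnRNP G, fell (69.1 ± 7.88 TPM in siMAD2L1, 104.1 ± 3.26 TPM in siControl, SD, n = 3 each; -0.59, adjusted p = 0.0113). Of 22 other regulators of alternative splicing 2 fell (9.09%), TIA1 (-0.87, adjusted p = 0.0294) and FUBP1, and KHDRBS3 rose (3.86 TPM on average in siMAD2L1, 1.44 TPM in siControl; 1.00, adjusted p = 0.0188; median of the list -0.07).

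In the 4 lists for the core of the splicing machinery 8 of 76 tested genes fell (10.5%, against 6.23% of all tested genes). Of 11 U1 and Sm protein genes 2 fell, SNRPD1 (-0.75, adjusted p = 0.0119) and SNRNP70 (-0.31, adjusted p = 0.0426), with a median of -0.20. Of 17 U2 and U2AF genes SF3A3 fell (-0.67, adjusted p = 0.0125; median -0.10). Of 24 genes of the U5 particle and the tri-snRNP 3 fell, with LSM2 (-0.55, adjusted p = 0.0144) and SNRNP40 (-0.47, adjusted p = 0.0265) foremost, at a median of -0.20. Of 24 genes of the Prp19 complex and catalytic steps 2 fell, ISY1 (-0.60, adjusted p = 0.0168) and PRPF19 (-0.37, adjusted p = 0.0483), at a median of -0.09. Of 15 exon junction and decay genes 1 fell, SMG6 (-0.51, adjusted p = 0.0484; median -0.05). Of 9 genes for arginine methyltransferases and a cofactor 2 fell, PRMT5 (-0.47, adjusted p = 0.0297) and its partner WDR77 (-0.47, adjusted p = 0.0381), at a median of -0.28. Over all tested genes the median was -0.08.

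Level and length were compared over the 36 genes as a description. Spearman's rho between the log2 fold change and the siControl mean was -0.08, and with exon length (all annotated exons joined) it was -0.15. With the number of annotated decay transcripts, which ran up to 9 per gene, it was -0.24. The 36 points come from the same 6 libraries. Among all genes at 50 to 100 TPM on average 10.7% were called lower, and 3 of the 6 genes of the set in that range were. At 100 TPM and above 8.58% were called lower and 12.4% higher, and 3 of the 17 genes of the set were called lower. At 20 to 50 TPM the share called lower was 9.05%, with 0 of 8 genes of the set. It was 6.69% at 5 to 20 TPM (0 of 3) and 2.5% at 1 to 5 TPM (0 of 2).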

How the data were processed

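RNA of 6 SNU449 libraries was read from 1 table of TPM per gene that the authors deposited. The submitters' processing notes name fastp, HISAT2, DESeq2 1.16.1 and hg38. How reads were counted and turned into TPM, with which annotation and strand setting, is not given in the sources used here. The identifiers of 21 of the 36 tested members also held an assembly name (MSTRG). Whether their TPM covers more than the GENCODE gene is unknown. All columns sum to one total, so depth is unknown. Columns named for a negative control and for MAD were matched to the titles by word and number.

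Genes averaging at least 1 TPM were kept, and on log2(TPM + 1) limma 3.58.1 (R 4.3.3, trend on) compared 3 siMAD2L1 with 3 siControl libraries. Fold changes are on this scale and understate the change of low genes. Adjusted p-values (Benjamini-Hochberg) are over all 14790 genes. Single ratios and genes had an exact two-sided permutation test. On 5 simulated datasets of 14790 genes the fit recovered 19.6% of genes changed by 0.5 on the log2 scale, 77.2% at 1 and 95.6% at 2, with 4.2% false calls. The simulated noise was independent between genes, and few genes were changed. The changed genes were drawn only from genes of higher TPM, so the recovery rates do not cover low genes such as SRSF12 and PTBP2. Shifts shared by many genes of a library, as seen in these data, were not simulated, so the real rates may differ. Named genes were all members, and per list up to 2 called genes with the largest change, or the 2 of highest TPM where none was called; overlapping genes, cell markers and the genes whose promoters are printed were chosen after their values were seen. Genes were placed with GENCODE 29 (57974 of 60232 Ensembl identifiers matched, and all 41 members), and promoters came from RefSeq (GRCh38.p14). The members and the lists were chosen with earlier results of these data known. The libraries were not paired by replicate number in the main fit, since the labels do not say that equal numbers belong together. The list of hnRNP proteins with other symbols is not reported in full here.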

Additional observations from a re-analysis of the deposited data

How the results depend on the processing

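The count of SR and hnRNP genes called (6) and of all genes called (1446) moved by over 1.5 times in these alternatives: 1 and 727 without a filter, 0 and 952 with limma without a trend, and 21 and 4860 with library weights. With siMAD2L1 replicate 1 alone against siControl, where the lone library is assumed to vary like the others, 2 genes of the set were called and the median of all genes turned to 0.0228. With a library left out, the counts ran from 0 to 16 and from 326 to 2422. All genes split into 921 lower and 525 higher, against 701 and 687 with quantile normalization, 715 and 648 with upper-quartile scaling and 622 and 780 with the length trend removed. In the other alternatives between 4 and 9 genes of the set were called. Whether equal replicate numbers pair the libraries is not said in the labels. Correlations of same-numbered deviations were 0.019, 0.00898 and 0.0631, and those of other pairs ran from -0.0525 to 0.0336. So few libraries cannot exclude pairing. With a replicate block 4 genes of the set and 868 of all genes were called. The median of the set stayed below 0 in all alternatives, from -0.341 without siMAD2L1 replicate 1 to -0.0914 with that replicate alone.

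No called gene of the set changed direction in 102 values under alternatives, of which 50 passed. Most of these values could not turn, since the groups of the called genes did not overlap. Only the alternatives that rescaled or adjusted the values could have turned them. Of 610 values of single genes under alternatives 36 turned, all at genes not called and none of them past the threshold. With upper-quartile scaling HNRNPA0 (0.0259), HNRNPC (0.0463) and HNRNPK (0.0259) turned, and HNRNPA0 with quantile normalization (0.0578). With the length trend removed these 3 stood at 0.0362, 0.0533 and 0.0478, and with library weights HNRNPA0 at 0.0256, HNRNPC at 0.000985, SRSF12 at -0.00964 and SRSF8 at -0.043. Without mitochondrial and the 20 highest genes SRSF12 stood at -0.00543. In siMAD2L1 replicate 1 alone the turned values were 0.0314 (HNRNPA0), 0.173 (HNRNPA3), 0.118 (HNRNPC), 0.256 (HNRNPDL), 0.300 (HNRNPH2), 0.113 (HNRNPH3), 0.123 (HNRNPK), 0.190 (HNRNPLL), 0.236 (HNRNPU), 0.154 (HNRNPUL2), 0.656 (PTBP2) and 0.488 (SRSF11). With a library left out, the ranges that crossed 0 were HNRNPA0 -0.0559 to 0.0403, HNRNPC -0.0651 to 0.0716, HNRNPH2 -0.353 to 0.0321, HNRNPK -0.0979 to 0.032, HNRNPU -0.342 to 0.0272, HNRNPUL2 -0.189 to 0.00294, SRSF11 -0.395 to 0.169, SRSF12 -0.0849 to 0.0961 and SRSF8 -0.0108 to 0.169. The cause of these changes was not tested. Without read depth, precision at low TPM is unknown.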
